A study of Mus musculus with 6 samples.

Results

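The collagen genes of mouse were followed through the stromal, mesothelial, endothelial and epithelial cells of pancreatic tumours, with and without inhibition of Hedgehog signalling. Every gene whose symbol is Col, digits, the letter a and digits was taken, which gave 44 of the 32285 genes in the count matrices, and no expression value was used to choose them. Single-cell RNA sequencing (10x Genomics, 3' chemistry version 3) was done on 6 pancreatic tumour samples, 1 library each, from mice of genotype KrasLSL.G12D/+; P53LSL.R172H/+; Pdx1-Cre, in which Cre driven by the Pdx1 promoter switches on both mutant alleles in the pancreatic epithelium. Both groups carried these alleles, so no normal pancreas was among the samples. One group of 3 samples came from mice given IPI-926, an inhibitor of the Hedgehog transducer Smoothened, by daily oral gavage at 40 mg/kg. The other 3 came from mice given the vehicle, hydroxypropyl-beta-cyclodextrin in water. The course was 2 days in both groups, with tumour taken 2 h after the last dose. Healthy pancreas was trimmed away and the tissue digested with enzymes, so the cells recovered are those that survive digestion. The labels do not pair treated with vehicle samples.

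Collagens are the main structural proteins of the extracellular matrix, each molecule being a triple helix of alpha chains encoded by separate genes. Fibril-forming chains (types I, III, V and XI) make the fibres of connective tissue, type IV chains make the network of basement membranes, type VI chains make beaded filaments, and other types sit on fibrils, anchor epithelium or carry signalling fragments. In pancreatic ductal adenocarcinoma the dense, collagen-rich stroma is laid down largely by cancer-associated fibroblasts, and Hedgehog ligands from the tumour epithelium signal to fibroblasts.

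The stretches before the transcription start of 5 chains are shown because these chains carry the main contrasts below: Col3a1 was the most abundant chain of fibroblasts, Col10a1 had the largest difference between the groups, Col13a1 marked endothelial cells, and Col4a5 with Col4a6 marked mesothelial cells. They come from RefSeq (GRCm38.p6, 5' to 3' on the strand of the gene), where 35 of the 44 symbols had a 300-base window, and bases that lie in an annotated exon were left out. Capitals mark the letters TATAAA on the strand of the gene, or GGGCGG on either strand.
Col3a1, chr1:45311288-45311537, plus strand: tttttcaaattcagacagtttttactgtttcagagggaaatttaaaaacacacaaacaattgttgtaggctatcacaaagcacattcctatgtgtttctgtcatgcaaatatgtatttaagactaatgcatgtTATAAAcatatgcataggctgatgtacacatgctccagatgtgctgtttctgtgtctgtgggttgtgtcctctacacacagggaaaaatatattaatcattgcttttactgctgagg
Col10a1, chr10:34389731-34389980, plus strand: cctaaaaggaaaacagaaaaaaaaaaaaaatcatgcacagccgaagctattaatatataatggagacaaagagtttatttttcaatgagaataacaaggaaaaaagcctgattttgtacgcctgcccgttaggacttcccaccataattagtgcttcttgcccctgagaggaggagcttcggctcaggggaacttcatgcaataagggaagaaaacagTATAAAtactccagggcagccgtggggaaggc
Col13a1, chr10:61979109-61979358, minus strand: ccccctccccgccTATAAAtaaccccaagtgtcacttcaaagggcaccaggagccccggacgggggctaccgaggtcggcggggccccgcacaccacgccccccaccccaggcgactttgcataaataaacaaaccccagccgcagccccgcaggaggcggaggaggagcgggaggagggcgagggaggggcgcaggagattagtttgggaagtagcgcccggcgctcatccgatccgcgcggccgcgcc
Col4a5, chrX:141475169-141475384, plus strand: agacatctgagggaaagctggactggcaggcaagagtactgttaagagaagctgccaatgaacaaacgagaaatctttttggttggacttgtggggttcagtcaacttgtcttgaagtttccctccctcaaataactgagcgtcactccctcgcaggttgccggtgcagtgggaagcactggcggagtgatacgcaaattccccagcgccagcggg
Col4a6, chrX:141474077-141474326, minus strand: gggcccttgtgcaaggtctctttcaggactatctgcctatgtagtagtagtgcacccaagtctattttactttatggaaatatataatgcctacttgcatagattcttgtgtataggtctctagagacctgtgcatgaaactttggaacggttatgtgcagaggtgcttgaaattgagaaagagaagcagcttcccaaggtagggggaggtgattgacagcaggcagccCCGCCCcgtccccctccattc
TATAAA lay 32 bases before the start of Col10a1, 117 before that of Col3a1 and 237 before that of Col13a1. These letters were found in 8.32% of all 32851 windows of 300 bases and in 5 of the 38 collagen windows. GGGCGG on either strand was found in 35.7% of all windows and in 23 of the 38 collagen windows, and within the printed stretches it occurred before Col4a6. The letters GACCACCCA, the form recognised by Gli factors, were found on either strand in 0.253% of all windows and in 0 of the 38 collagen windows. TGTGGT on either strand was in 16.8% of all and 3 of 38 collagen windows, and TGANTCA in 7.81% of all and 1 of 38. These matches describe letters in short windows and say nothing of binding.

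The 6 libraries held 62905 cell barcodes with 100810942 to 174929328 unique molecular identifiers (UMIs, 1 per captured RNA molecule) each, and 49797 cells remained after filters and removal of 5114 scored doublets. At most 59 barcodes were shared by 2 libraries. Cells were clustered without any collagen gene and named from non-collagen markers, which gave 4219 fibroblasts, 394 perivascular cells, 771 mesothelial cells, 1693 endothelial cells and 6708 ductal epithelial cells, while 10403 cells stayed unnamed. IPI-926 library 3 stood apart: 2010 of its 2077 fibroblasts lay in clusters made of that library alone, led by Crabp1, Cthrc1 and Thbs2. They are called fibroblasts from their markers alone, and their origin was not tested. Sub-clusters of 272 and 28 fibroblasts, all from this library, had genes of macrophages and monocytes, such as C1qa and Lyz2, among their top 10. The other libraries had 63 to 1053 fibroblasts. Mixed sub-clusters occurred among these as well. One of 196 fibroblasts, 194 from vehicle library 2, had immune genes such as Ccl6, Il1b and Laptm5 in its top 10, at a median of 1101 UMIs. Another of 320 fibroblasts from all 6 libraries had ductal genes such as Tff1, Tff2 and Krt18 there, at a median of 1314 UMIs. IPI-926 library 1 had 13 mesothelial cells and was left out of that class, as fewer than 20 cells were present. Gli1, the transcription factor induced by Hedgehog signalling, stood at 10.5, 11.2 and 11.9 scaled CPM in vehicle fibroblasts and 0.406, 1.41 and 0.163 after IPI-926. In mesothelial cells it stood at 12.5, 12.7 and 7.23 scaled CPM in vehicle and 0.843 and 0.261 after IPI-926. The groups did not overlap in either class. All IPI-926 libraries lay below for 5.54% of all genes tested in fibroblasts and 15.1% in mesothelial cells. Gli1 did not pass the test (adjusted p = 0.861 by edgeR in fibroblasts, and 0.0701 in mesothelial cells). Ptch1 and Hhip, also set as readouts of the treatment, are not given here.

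Pooled over the libraries, cells named fibroblasts held most of the collagen transcripts. Of 3831233 collagen UMIs in all cells, 70.2% were in fibroblasts, 3.97% in mesothelial, 3.64% in ductal epithelial, 2.65% in endothelial and 1.51% in perivascular cells, and 16.5% were in cells left unnamed. IPI-926 library 3 weighed most in the fibroblast share, with 89356065 fibroblast UMIs against 1394009 to 17465595 in the other libraries. The unnamed cells include a cluster of 4150, of which 4144 were from the same library. It had 5 fibroblast markers (Lum, Postn, Thbs2, Cthrc1 and Ly6c1), none of them among its top 10 genes, and a median of 1154.5 UMIs per cell. As a share of the UMIs of a class, collagens made up a median of 3.35% (range 1.70% to 3.89%) over libraries in fibroblasts, 1.62% (range 1.14% to 2.35%) in perivascular cells, 0.897% (range 0.816% to 1.12%) in mesothelial cells and 0.686% (range 0.546% to 0.841%) in endothelial cells. Ductal epithelial cells had 0.0540% (range 0.0468% to 0.0794%). With scored doublets kept, the mean over libraries was 1.71% in place of 0.942% in mesothelial cells and 0.0912% in place of 0.0571% in ductal cells. The extent of the mesothelial class also depends on the clustering, which gave 771 cells without collagens and 1676 with them. Immune cells, which should make almost none, give the background of free RNA: 0.0471% (range 0.0164% to 0.234%) in neutrophils, 0.0310% (range 0.0132% to 0.106%) in B cells and 0.0336% (range 0.0142% to 0.0888%) in T and NK cells. In each of these 3 immune classes the highest library was IPI-926 library 3. The shares of the 4 stromal and vascular classes lay above this background in every library. Those of ductal cells did not. They were above all 3 immune classes in vehicle library 3 and IPI-926 libraries 1 and 2, at 0.0468, 0.0498 and 0.0589%. In the other libraries at least 1 immune class was higher. The part of free RNA in the ductal sum was not tested. Ductal Col1a1, Col1a2 and Col3a1 lay inside the range of the immune classes. Another fibril-forming chain, Col27a1, had a ductal median of 54.5 CPM (range 12.4 to 81.1), against at most 23.7 in an immune class. Ductal Col18a1 had a median of 169.8 CPM (range 27.3 to 221), against at most 24.7 in an immune class.

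**Figure D1:**
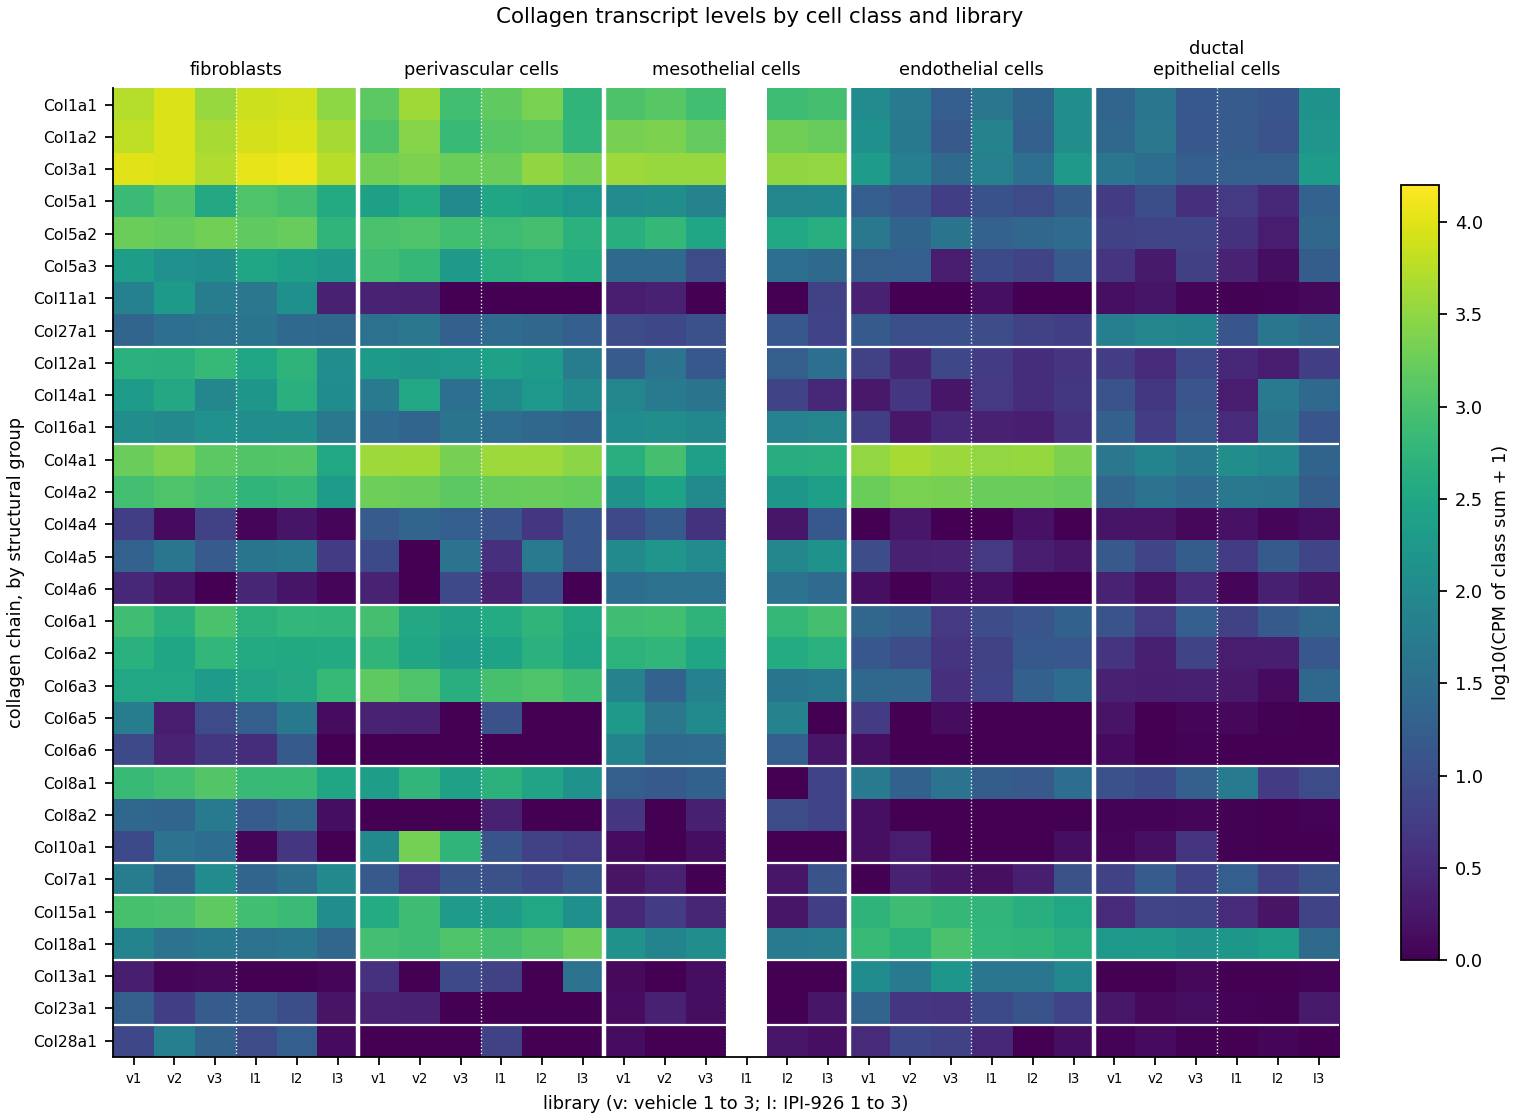
Level of the 30 collagen chains above 10 CPM in at least 1 of 5 cell classes, as log10(CPM of the class sum + 1) by colour, with chains in rows by structural group and the 6 libraries of each class in columns. The blank column is IPI-926 library 1 of mesothelial cells, with 13 cells. Col1a1, Col1a2 and Col3a1 are brightest in fibroblasts, Col4a1 and Col4a2 in perivascular and endothelial cells, and Col4a5 and Col4a6 in mesothelial cells.

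Of the 44 chains, 30 had a mean above 10 CPM (UMIs of the gene scaled to a common total for each class sum) in at least 1 of these 5 classes. By the median over libraries, 15 of them were highest in fibroblasts, 6 in perivascular cells, 6 in mesothelial cells, 2 in endothelial cells and 1 in ductal epithelial cells. The library ranges of most neighbouring classes overlapped: only 6 chains had a highest class whose lowest library exceeded every library of the other 4 classes, namely Col1a2, Col3a1 and Col7a1 in fibroblasts, Col4a5 and Col4a6 in mesothelial cells and Col13a1 in endothelial cells. The 14 other chains never reached 10 CPM and had 1 to 1161 UMIs each in all cells. They include the cartilage chains Col2a1, Col9a1, Col9a2, Col9a3 and Col11a2, and Col17a1, the hemidesmosome collagen of stratified epithelium, with 215 UMIs. No chain was at 0. The levels below are unscaled CPM with the range over libraries, and since the 3' chemistry counts 1 tag per molecule, levels of different genes can be compared without a correction for length.

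Among the fibril-forming chains, Col3a1 (ENSMUSG00000026043, chromosome 1 from 45311538 to 45349706, plus strand, GRCm38) led in fibroblasts. This chain, which forms the homotrimer of type III collagen, had a median of 9781 CPM (range 5032 to 12291) there. Col1a2 and Col1a1, the 2 chains of type I collagen, the most abundant fibrillar collagen of tissues, followed at 7389.7 CPM (range 4279.8 to 9543) and 6407 CPM (range 3020.4 to 9394). Mesothelial cells, the lining of the peritoneal surface, also carried Col3a1 at 3532 CPM (range 3123 to 3813) and Col1a2 at 1961 CPM (range 1523 to 2383), with less Col1a1 at 903 CPM (range 783 to 1305). In perivascular cells Col3a1 was at 2121 CPM (range 1736 to 3171) and Col1a1 at 1445 CPM (range 558 to 3959.7), where the upper end of Col1a1 reached the range of fibroblasts. In endothelial cells Col3a1 was at 65.6 CPM (range 27.1 to 204), inside the range of 8.59 to 711 CPM that the 3 immune classes gave.

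Of the minor fibrillar chains, which are built into type I fibrils and limit their diameter, Col5a1, Col5a2 and Col11a1 were highest in fibroblasts. Col5a2 was at 1653 CPM (range 553 to 2037) and Col5a1 at 824 CPM (range 345 to 1206) in fibroblasts, against 880.0 CPM (range 475 to 1102) and 247 CPM (range 100.5 to 384) in perivascular cells. The third type V chain, Col5a3, was highest in perivascular cells at 476 CPM (range 186 to 802), with 203 CPM (range 124 to 301) in fibroblasts. Col11a1, a type XI chain often noted in tumour fibroblasts, was at 63.2 CPM (range 1.43 to 192) in fibroblasts, its lowest value being that of IPI-926 library 3. Col27a1 was the 1 chain that was highest in ductal epithelial cells, at 54.5 CPM (range 12.4 to 81.1), against 29.6 CPM (range 22.7 to 40.8) in fibroblasts and at most 23.7 CPM in an immune class. Its ductal range included lower values than the fibroblast range, so the 2 classes overlapped.

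Of the fibril-associated chains, which lie on the surface of fibrils, Col12a1 was at 475 CPM (range 111 to 653) in fibroblasts and 182 CPM (range 58.3 to 248) in perivascular cells. Col14a1 was at 184 CPM (range 86.0 to 459) in fibroblasts, 99.1 CPM (range 33.5 to 319.6) in perivascular and 41.0 CPM (range 2.04 to 83.7) in mesothelial cells. Col16a1 had 116 CPM (range 47.1 to 133) in fibroblasts and 90.5 CPM (range 70.8 to 116) in mesothelial cells, so these ranges overlapped almost fully. The other 6 members of this group never reached 10 CPM.

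The 6 basement membrane chains split by gene pair. Col4a1 and Col4a2, which assemble into the common network of all basement membranes, were highest in vessels: Col4a1 had 3847 CPM (range 2213 to 4054) in perivascular and 3359 CPM (range 2389 to 4492) in endothelial cells, and Col4a2 had 1684 CPM (range 1373 to 1903) and 1776 CPM (range 1612 to 2272). These 2 classes did not separate for either chain. Fibroblasts followed with 1295 CPM (range 335 to 2411) for Col4a1, then mesothelial cells with 440.2 CPM (range 236 to 913), and ductal cells were lowest at 64.1 CPM (range 22.0 to 116). Col4a5 and Col4a6, chains of the network found in epithelial and smooth muscle basement membranes, were highest in mesothelial cells, at 104 CPM (range 88.3 to 152) and 35.6 CPM (range 28.3 to 38.2). The lowest mesothelial library stood above every library of the 4 other classes for both. Ductal cells, the epithelium of these tumours, had 10.1 CPM (range 4.49 to 16.1) of Col4a5. Col4a3 and Col4a4, best known from the kidney glomerulus, were scarce: Col4a4 reached 13.9 CPM (range 3.64 to 22.4) in perivascular cells, where immune classes went up to 11.9 CPM, and Col4a3 had 135 UMIs in all cells.

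These chains lie head to head in the genome, in 3 pairs read outward from a shared region. The annotated starts of Col4a1 (minus strand, position 11312826 of chromosome 8) and Col4a2 (plus strand, 11312805) overlap by 22 bases, those of Col4a4 and Col4a3 on chromosome 1 are 71 bases apart, and those of Col4a6 and Col4a5 on chromosome X are 1308 bases apart. Col4a5 and Col4a6 shared their highest class. By median, Col4a3 and Col4a4 were also highest in the same class, perivascular cells. Col4a3 was at only 3.49 CPM (range 1.44 to 7.44) there, and both chains overlapped mesothelial cells. Col4a1 was highest in perivascular and Col4a2 in endothelial cells, but these classes did not separate for either chain. The ratio of Col4a1 to Col4a2 had a median of 1.92 (range 1.60 to 2.17, n = 6 libraries) in fibroblasts, 2.16 (range 1.61 to 2.35, n = 6 libraries) in perivascular cells, 2.47 (range 1.91 to 3.37, n = 5 libraries) in mesothelial cells, 1.87 (range 1.48 to 1.98, n = 6 libraries) in endothelial cells and 1.99 (range 1.33 to 2.43, n = 6 libraries) in ductal cells. It stayed above 1 in each of these libraries although the level of Col4a1 differed by over 10 times between endothelial and ductal cells.

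**Figure D2:**
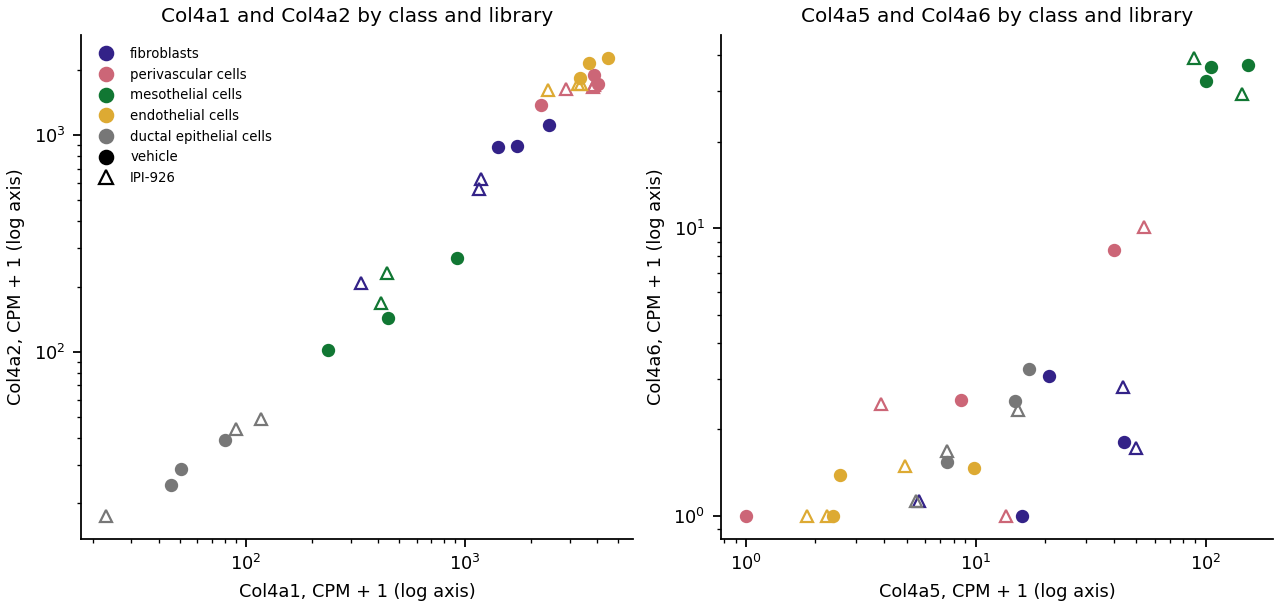
Levels of Col4a1 against Col4a2 (left) and Col4a5 against Col4a6 (right), as CPM + 1 on log axes, each point being 1 class in 1 library, with colour for class, filled circles for vehicle and open triangles for IPI-926. The first pair lies along 1 line from ductal to vascular cells, and in the second the 5 mesothelial points stand apart at 88.3 to 152 CPM of Col4a5.

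Type VI collagen, the beaded filament that links cells to the interstitial matrix, did not follow fibrillar collagen. Col6a1 and Col6a2 were highest in mesothelial cells, at 809 CPM (range 537 to 918) and 474 CPM (range 302 to 587), against 594 CPM (range 464 to 980.1) and 373 CPM (range 295 to 608) in fibroblasts, and the ranges overlapped. Col6a3, the third obligate chain of the common filament, was highest in perivascular cells at 1009 CPM (range 441 to 1424) and lowest of the 3 in mesothelial cells at 49.0 CPM (range 20.1 to 75.6). The ratio of Col6a3 to Col6a1 therefore ran from 0.0670 (range 0.0241 to 0.128, n = 5 libraries) in mesothelial cells through 0.562 (range 0.201 to 1.14, n = 6 libraries) in fibroblasts to 2.24 (range 1.58 to 3.16, n = 6 libraries) in perivascular cells, with no overlap between these 3 classes. Col6a5 and Col6a6, chains that can take the place of Col6a3, were highest in mesothelial cells, at 73.2 CPM (range 0 to 178) and 25.8 CPM (range 0.766 to 77.9), though IPI-926 library 3 had 0 and 0.766 CPM there. The ratio of Col1a1 to Col1a2 was also lower in mesothelial cells, at 0.547 (range 0.399 to 0.561, n = 5 libraries), than in fibroblasts, at 0.862 (range 0.706 to 0.984, n = 6 libraries), or perivascular cells, at 1.28 (range 0.964 to 1.56, n = 6 libraries).

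Among the network and anchoring chains, Col8a1 was at 687 CPM (range 289 to 1181) in fibroblasts and 267 CPM (range 142 to 573) in perivascular cells, and its partner Col8a2 was at 23.1 CPM (range 0.425 to 53.7) in fibroblasts. Col7a1, which forms the anchoring fibrils below epithelia, was at 45.7 CPM (range 21.6 to 103) in fibroblasts and at 8.01 CPM (range 5.37 to 16.8) in ductal cells. One neutrophil library held 49.7 CPM of Col7a1, so the low end of the fibroblast range was within the immune background. Col15a1 and Col18a1, the multiplexins of basement membrane zones, parted: Col15a1 was at 902 CPM (range 119 to 1445) in fibroblasts and 558 CPM (range 330.1 to 772) in endothelial cells, while Col18a1, the source of endostatin, was at 1009 CPM (range 775 to 1721) in perivascular, 579 CPM (range 428 to 1002) in endothelial and 169.8 CPM (range 27.3 to 221) in ductal cells, and only 41.1 CPM (range 23.0 to 76.4) in fibroblasts. Col18a1 was the most abundant collagen of ductal cells by median. Col13a1, a collagen anchored in the cell membrane, was at 72.6 CPM (range 43.1 to 158) in endothelial cells, with at most 37.5 CPM in a library of another of the 5 classes.

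Within fibroblasts, sub-clusters named inflammatory fibroblast-like (Il6, Cxcl12, Clec3b, Dpt, Cxcl1, C3 and Pi16 in the one that gave most of these cells) and myofibroblastic fibroblast-like (Tagln and Cdh11, with Igfbp3 or Tnc, none of them among the top 10 genes) differed in their chains in each of the 4 libraries that held at least 20 cells of both. The myofibroblastic name rests on 3 markers in each sub-cluster. Acta2, Postn, Thbs2, Cthrc1, Thy1 and Lrrc15 of the same list did not meet the marker rule in either. The top 10 genes included Hp, Saa3 and Lcn2 in the larger, with 598 of 645 cells from vehicle library 2. In the smaller they included S100a8, S100a9 and Cxcl2. Sizes were 67, 69, 112 and 22 cells against 38, 604, 178 and 20 in vehicle libraries 1 and 2 and IPI-926 libraries 1 and 2. Col3a1 was higher in the inflammatory sub-clusters, at 16056, 20260.4, 16789 and 20444 CPM against 9910.2, 8407, 8688 and 7811. Col14a1 was higher there as well, at 378, 1263, 487 and 1176 against 135, 276, 44.8 and 148 CPM. The order was the opposite for Col8a1, at 126, 473, 163 and 164 against 764, 890.0, 837 and 997 CPM. Col15a1 was at 444, 443, 460.4 and 495 against 1117, 1055, 1005 and 1038 CPM. Of 30 chains, 7 were higher in the inflammatory sub-clusters in 4 of 4 libraries, the others being Col1a2, Col18a1, Col4a5, Col6a5 and Col6a6. Lower in 4 of 4 were 10, the others being Col11a1, Col12a1, Col7a1, Col5a3, Col27a1, Col10a1, Col23a1 and, on 11 UMIs, Col4a4. The other 13, with Col1a1, Col4a1 and Col4a2 among them, had no order common to all 4. With 4 libraries this is a description, and no test was made of it. The share of all genes with an order common to these libraries was not computed. The counts therefore do not show a pattern particular to collagens.

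**Figure D3:**
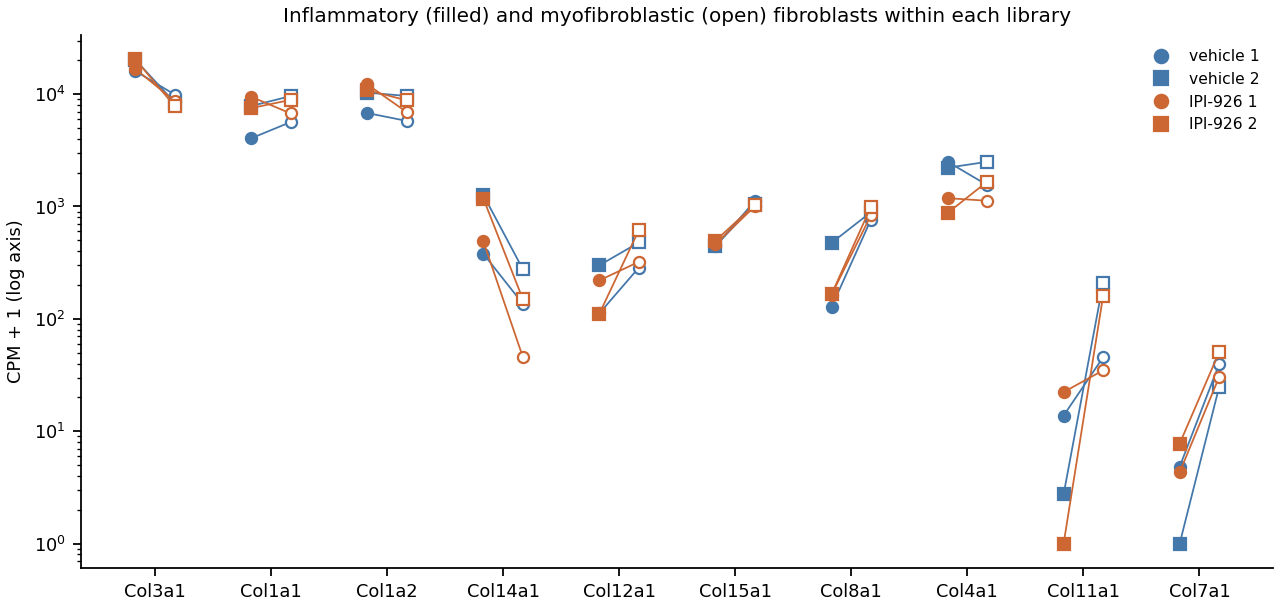
CPM + 1 (log axis) of 10 collagen chains in inflammatory (filled) and myofibroblastic (open) fibroblast-like sub-clusters, joined within each of 4 libraries, with blue for vehicle and orange for IPI-926. Lines for Col3a1 and Col14a1 fall and those for Col12a1, Col15a1, Col8a1, Col11a1 and Col7a1 rise in all 4 libraries.

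Sub-clusters of endothelium differed as well, on few libraries. In vehicle libraries 1 and 3, arterial-like cells (55 and 210) had Col13a1 at 306 and 305 CPM against 46.6 and 99.9 in venous-like cells (75 and 242), and Col8a1 at 72.7 and 73.1 against 2.45 and 4.23 CPM. In vehicle library 1 the 29 lymphatic-like cells had 569 CPM of Col4a1, against 3259.6 in venous-like and 3878 in arterial-like cells of the same library, and 0 UMIs of Col15a1 and Col13a1. Their Col8a1, at 253 CPM, and their transmembrane Col23a1, at 119 CPM, were above those of both blood vessel sub-clusters. These are values of 1 library with no replicate.

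A cluster of 1095 cells was left unnamed, because it had 5 fibroblast markers with none among its top 10 genes, which included Wt1, a transcription factor of mesothelium. Over the 6 libraries, with 41 to 663 cells each, Col3a1 ran from 5038 to 9999 CPM, Col4a5 from 74.0 to 171 and Col4a6 from 11.7 to 36.6. Against fibroblasts outside the clusters of 1 library, Col4a5 and Col4a6 were higher in 6 of 6 libraries. Lower in 6 of 6 were Col1a1, Col1a2, Col4a1, Col4a2, Col5a1, Col5a2, Col5a3, Col6a3, Col7a1, Col8a1, Col8a2, Col14a1, Col15a1, Col16a1, Col23a1 and Col28a1. Col10a1 was higher in 0 of 6. The rest of the 30 chains compared had no order common to all 6 libraries. No test was made of these values, and the share of all genes with such an order was not computed. These counts too show no pattern particular to collagens.

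Turning to treatment, no collagen passed the threshold in any class after IPI-926. The comparisons used edgeR's quasi-likelihood test on counts summed per library and class, with adjustment over all genes tested, and values are CPM scaled by the TMM method. In fibroblasts 0 of 28 tested collagens were called (background 0% of 12294 genes), in perivascular cells 0 of 19 (background 0.0144% of 6950), in mesothelial cells 0 of 24 (background 0.0372% of 10744), in endothelial cells 0 of 17 (background 0% of 10335), in ductal cells 0 of 27 (background 0% of 15177) and in the sums of all kept cells, where fewer cells of a type and less RNA per cell cannot be told apart, 0 of 36 (background 0% of 17882). At an unadjusted p under 0.05 these were 2, 1, 4, 0, 1 and 4 collagens, beside 487, 161, 1330, 353, 525 and 680 of all genes tested in the same order. DESeq2 called 0 collagens in fibroblasts (background 0.277%), 1 in perivascular cells (background 0.0719%), 1 in mesothelial cells (background 1.63%), 0 in endothelial cells (background 0.029%), 0 in ductal cells (background 0.573%) and 1 in all kept cells (background 0.688%), while limma-voom called 0 in each. A gene that misses the threshold with 3 libraries in a group may still differ.

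The median log2 fold change of the tested collagens was -0.28 in fibroblasts, -0.19 in perivascular, -0.08 in mesothelial, -0.24 in endothelial and 0.42 in ductal cells. The medians over all genes tested in these classes were 0.02, -0.0005, -0.01, -0.01 and 0.05. Over all alternatives run, the collagen median ran from -0.69 to -0.09 in fibroblasts, -0.48 to 0.02 in perivascular, -0.21 to 0.14 in mesothelial, -0.70 to 0.20 in endothelial and -0.77 to 0.57 in ductal cells, so that its sign was the same under each of them in fibroblasts alone. Chains whose IPI-926 libraries all lay below the vehicle libraries numbered 4 of 28 in fibroblasts (background 5.54%), 1 of 19 in perivascular cells (3.74%), 6 of 24 in mesothelial cells (15.1%), 1 of 17 in endothelial cells (5.42%) and 1 of 27 in ductal cells (4.33%). Chains whose IPI-926 libraries all lay above numbered 0 in fibroblasts (background 4.86%), 0 in perivascular cells (3.67%), 2 in mesothelial cells (14.6%), 0 in endothelial cells (4.66%) and 0 in ductal cells (3.68%). The mesothelial background is higher because 3 libraries were set against 2.

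**Figure D4:**
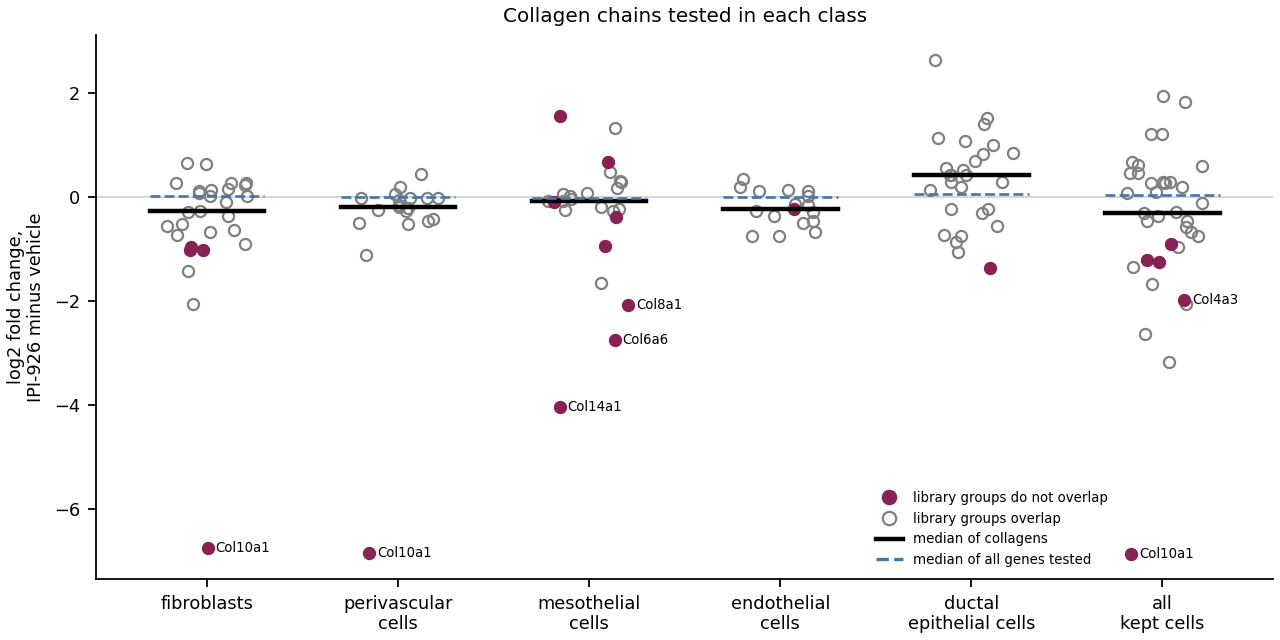
Log2 fold change (IPI-926 minus vehicle, edgeR) of each tested collagen in 5 classes and in all kept cells, with filled points for chains whose library groups do not overlap, black bars for the median of the collagens and dashed bars for the median of all genes tested. Col10a1 lies at -6.75 in fibroblasts, -6.86 in perivascular cells and -6.87 in all kept cells, apart from the rest, and Col14a1 lies at -4.04 in mesothelial cells.

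Col10a1 (ENSMUSG00000039462, chromosome 10 from 34389981 to 34397085, plus strand), the network-forming collagen of hypertrophic cartilage, had the largest log2 fold change of the chains tested in fibroblasts, perivascular cells and all kept cells. Of its 3093 UMIs in all kept cells, 3069 came from vehicle tumours (108, 2244 and 717 in libraries 1 to 3) and 24 from IPI-926 tumours (12, 9 and 3). In perivascular cells it stood at 101, 2262 and 573 scaled CPM in vehicle and 11.9, 5.90 and 4.19 after IPI-926, a log2 fold change of -6.86 with SE 1.51 and an unadjusted p of 0.00509 (adjusted p = 1 by edgeR). In fibroblasts it stood at 7.70, 40.2 and 31.0 scaled CPM in vehicle and 0.135, 3.54 and 0 after IPI-926, a log2 fold change of -6.75 with SE 2.11 (adjusted p = 0.861 by edgeR). Every vehicle library was above every IPI-926 library in both classes, and the vehicle libraries themselves spread over more than 5 times. The 2077 fibroblasts of IPI-926 library 3 held 0 Col10a1 UMIs, which allows a share of cells with a UMI of up to 0.144%. The IPI-926 values in perivascular cells rest on 8, 3 and 1 UMIs, and immune classes held up to 4.05 unscaled CPM.

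The Col10a1 molecules came from few cells. In all, 40 cells carried 10 or more UMIs, and these held 2527 of the 3093 (81.7%). All 40 were in vehicle tumours (2, 21 and 17 cells), 18 of them perivascular, 16 fibroblasts and 6 ductal epithelial cells by class, and the highest single cell, in vehicle library 2, held 751 UMIs (24.3% of the total). No IPI-926 cell had more than 5. Perivascular cells had a median of 6524.5, 11269.5 and 4251 UMIs per cell in vehicle and 11303, 10270 and 5543 in IPI-926 libraries.

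Most of the perivascular Col10a1 lay in 1 sub-cluster of 30 cells, which was left unnamed. It had 7, 9 and 9 cells in vehicle libraries and 4, 1 and 0 in IPI-926 libraries, and Col10a1 was at 299, 6091 and 3376 unscaled CPM in its vehicle cells and at 42.4 and 126 in those of IPI-926 libraries 1 and 2. Its leading genes were Mmp9, a gelatinase, Dkk2, a WNT pathway modulator, and Spp1, Ibsp and Dmp1, 3 phosphoproteins of mineralised matrix. Over all libraries it had 3266 CPM of Spp1 and 956 of Dmp1, with 5449 of Col1a1. The pericyte marker Rgs5 was at 749 CPM in it and at 2028 to 10404 in the other 6 sub-clusters, so the cells belong to the perivascular class by their cluster and had less of that marker. Without this sub-cluster the log2 fold change in perivascular cells was -4.24. Without vehicle library 2, which held most of the UMIs, it was -5.31. DESeq2 gave adjusted p = 1.11e-04 in perivascular cells, where the other alternatives gave 0.208 to 1, and 3.41e-07 in all kept cells, where the others gave 0.516 to 1, so whether Col10a1 is called depends on the tool.

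**Figure D5:**
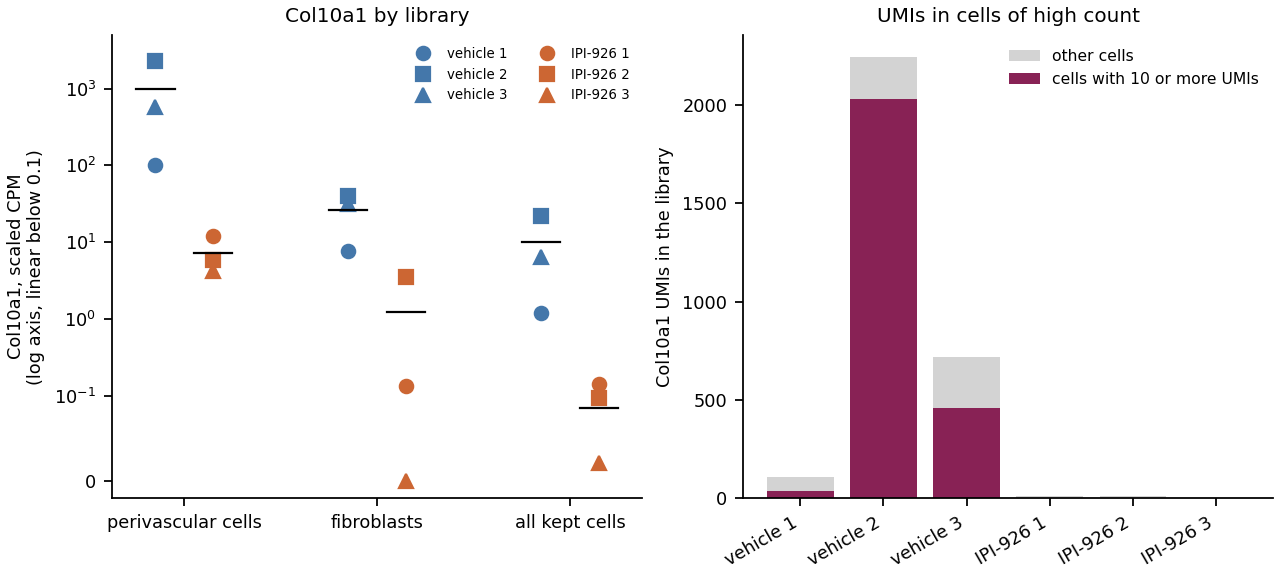
Left, Col10a1 in scaled CPM (log axis, linear below 0.1) in perivascular cells, fibroblasts and all kept cells, each point being 1 library and each bar the mean of 3. Right, Col10a1 UMIs per library, with the part in cells of 10 or more UMIs in purple. All vehicle points lie above all IPI-926 points, and vehicle library 2 holds 2244 of the 3093 UMIs.

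In fibroblasts the fibrillar chains that make up most of the collagen overlapped between groups. Col1a1 was 6075 ± 3148 against 6374 ± 2809 scaled CPM (SD, n = 3 and 3), with library values of 5206, 9566 and 3452 against 7837, 8149 and 3135 and a log2 fold change of 0.07 with SE 0.50. Col1a2 had 0.14 (SE 0.40), Col3a1 0.27 (SE 0.39), Col5a1 0.11 (SE 0.57) and Col5a2 -0.51 (SE 0.40) as log2 fold changes. The direction of Col1a1, Col1a2 and Col5a1 turned when single libraries were left out, and each had 1 low library in either group, vehicle library 3 and IPI-926 library 3. As a share of fibroblast UMIs, all collagens together were 3.20, 3.89 and 2.36% in vehicle and 3.50, 3.87 and 1.70% in IPI-926 libraries, so the groups overlapped. Type VI chains overlapped as well, with -0.37 (SE 0.29) for Col6a1, -0.28 (SE 0.29) for Col6a2 and 0.64 (SE 0.41) for Col6a3, whose highest value was that of IPI-926 library 3. The same held for Col8a1 at -0.67 (SE 0.38), Col12a1 at -0.73 (SE 0.52) and Col14a1 at 0.24 (SE 0.68). The mix of fibroblast sub-clusters also differed between libraries. Vehicle library 3 had 340 of its 412 fibroblasts in an unnamed sub-cluster. Vehicle library 2 had 598 of 1053 in a myofibroblastic fibroblast-like sub-cluster, and IPI-926 library 1 had 152 of 341 in another of that name. The part of this mix in the fibroblast differences, here and below, was not tested.

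Of 3 type IV chains tested in fibroblasts, Col4a1 and Col4a2 were lower in every IPI-926 library than in every vehicle library, as was the multiplexin Col15a1, and none passed the test. Col4a5 overlapped, at 19.5, 43.8 and 14.3 against 44.3, 48.1 and 4.82 scaled CPM. Col4a1 stood at 1697, 2455 and 1357 scaled CPM in vehicle and 1206, 1163 and 347 after IPI-926, a log2 fold change of -1.02 with SE 0.50 (adjusted p = 0.861 by edgeR). Col4a2 stood at 873, 1134 and 848 scaled CPM in vehicle and 590.1, 615 and 214 after IPI-926, a log2 fold change of -1.01 with SE 0.42 (adjusted p = 0.861 by edgeR). Col15a1 stood at 939, 1004 and 1389 scaled CPM in vehicle and 884, 707 and 124 after IPI-926, a log2 fold change of -0.96 with SE 0.66 (adjusted p = 0.861 by edgeR). For all 3 the lowest library by far was IPI-926 library 3. Without that library's own clusters the log2 fold changes were -0.42, -0.32 and -0.21, and without the library as a whole -0.63, -0.66 and -0.48. On the unscaled CPM of the classes without those clusters, library 3 had 1080.3 of Col4a2, and for all 3 chains it then lay above the lowest vehicle library, so the groups overlapped. Inside that library, the 2010 fibroblasts of its own clusters had 320.3 unscaled CPM of Col4a1 and 108 of Col15a1, and the 67 others had 1741 and 1279.8. Those 2010 cells also had more Col7a1, at 104 against 23.5 CPM, and less Col3a1, at 5451 against 17313.

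In mesothelial cells, where 3 vehicle libraries were set against 2, Col14a1 came nearest to the threshold. It stood at 81.2, 52.1 and 41.1 scaled CPM in vehicle and 6.74 and 2.09 after IPI-926 (libraries 2 and 3), a log2 fold change of -4.04 with SE 0.56 (adjusted p = 0.0597 by edgeR). The lowest vehicle library was over 5 times the higher IPI-926 library. It was called by DESeq2 (adjusted p = 8.55e-08), by edgeR without the filter on low counts (adjusted p = 4.18e-05, background 1.51%, where Col7a1 was called too) and by edgeR without IPI-926 library 2 (adjusted p = 0.0231, background 0.834%). With the unnamed Wt1 cluster added to the class, which brings IPI-926 library 1 back, its log2 fold change was -2.80. Over all alternatives the log2 fold change ran from -4.80 to -2.36 and the adjusted p from 8.55e-08 to 1, the smallest change being that with scored doublets kept. Of 21 fibroblast markers, 6 were lower (background 15.1%) and 3 higher (background 14.6%) in both IPI-926 libraries than in all vehicle libraries, Pdgfra among the lower at 99.9, 106 and 45.5 against 14.3 and 12.0 unscaled CPM, and the summed level of the list ran from 7426 to 17111 CPM in vehicle and from 7817 to 7871 in IPI-926 libraries. Lum, a proteoglycan of fibroblasts, was at 3.48, 0 and 6.30 against 0.796 and 22.5 CPM, and no marker was at 0 in all 5 libraries. The part of fibroblast RNA in the result was not tested.

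Other mesothelial chains outside the overlap were smaller or rested on few molecules. Col18a1 stood at 134, 76.0 and 115 scaled CPM in vehicle and 54.8 and 58.8 after IPI-926, a log2 fold change of -0.95 with SE 0.28 (adjusted p = 0.252 by edgeR). Col6a6 stood at 75.5, 25.3 and 28.9 scaled CPM in vehicle and 17.7 and 0.784 after IPI-926 with a log2 fold change of -2.75 with SE 1.18, and Col8a1 at 17.1, 14.1 and 19.0 scaled CPM in vehicle and 0 and 6.01 after IPI-926 with a log2 fold change of -2.07 with SE 0.66, on 710 and 212 UMIs in the class. Col16a1 had -0.38 (SE 0.21) and Col3a1 -0.09 (SE 0.20), where the groups did not overlap but lay within 3309 to 3698 scaled CPM for Col3a1. Higher in both IPI-926 libraries were Col5a3, at 0.68 (SE 0.47), and Col8a2, at 1.56 (SE 0.67) on 65 UMIs. The other 11 named chains tested in mesothelial cells overlapped, with log2 fold changes from -0.27 for Col1a1 to 0.47 for Col12a1.

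No vascular collagen passed the test. In endothelial cells Col4a2 stood at 1833, 2348 and 1978 scaled CPM in vehicle and 1802, 1775 and 1642 after IPI-926, a log2 fold change of -0.24 with SE 0.16 (adjusted p = 0.98 by edgeR), which was the 1 endothelial chain without overlap. Col4a1 had -0.28 (SE 0.21), Col15a1 -0.47 (SE 0.25) and Col18a1 -0.36 (SE 0.25) as log2 fold changes, with overlapping groups. The mix of endothelial sub-clusters differed between libraries. IPI-926 library 3 had 241 of its 326 endothelial cells in an unnamed sub-cluster of that library alone. Vehicle library 3 had 210 arterial-like and 242 venous-like cells among 581. The part of this mix in the endothelial differences, here and below, was not tested. In perivascular cells Col4a1 stood at 4016, 4342 and 2302 scaled CPM in vehicle and 3932, 4200.1 and 2915 after IPI-926, a log2 fold change of 0.05 with SE 0.27, and Col18a1 at 901, 830.2 and 1137 scaled CPM in vehicle and 954, 1245 and 1732 after IPI-926, a log2 fold change of 0.45 with SE 0.25. The groups overlapped for both. The other named chains overlapped as well, from -0.76 for Col13a1 to 0.35 for Col6a2 over 10 chains in endothelial cells and from -1.11 for Col15a1 to 0.18 for Col3a1 over 14 chains in perivascular cells.

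In ductal epithelial cells Col27a1 was lower in every IPI-926 library, at 64.6, 78.6 and 79.3 scaled CPM in vehicle and 13.4, 41.6 and 31.2 after IPI-926, a log2 fold change of -1.37 with SE 0.41 (adjusted p = 1 by edgeR). This chain was also the one for which ductal cells were the highest class. Its log2 fold change kept its direction when each library was left out, from -1.73 to -1.02. Col18a1 stood at 171, 178 and 144 scaled CPM in vehicle and 183, 207 and 27.2 after IPI-926, so that IPI-926 library 3 alone was low, and the direction turned without it. Col3a1 in ductal cells was highest in that library, at 208 unscaled CPM there against 43.5, 32.1, 16.9, 17.9 and 17.6 in the other 5. Neutrophils of the same library held 711 CPM of Col3a1, also the highest of the 6. The other 16 named chains overlapped in ductal cells, with log2 fold changes from -0.87 for Col12a1 to 2.64 for Col6a3. Of 10 acinar markers, 7 were also lower in every IPI-926 library in this class (background 4.33%), and their summed level ran from 36.6 to 243 CPM in vehicle and from 4.22 to 209.8 in IPI-926 libraries. The part of acinar cells or free RNA in the ductal values was not tested. The ductal class was also a different mix of clusters in each library. IPI-926 library 1 had 781 of its 838 ductal cells in a single cluster, and IPI-926 library 3 had 437 of 487 in another. Vehicle library 3 had 1154 and 1199 of its 2586 in still other clusters. The part of this mix in the ductal differences, here and below, was not tested.

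In the sums over all kept cells 5 of 36 chains lay below vehicle in every IPI-926 library (background 4.34%) and 0 above (background 3.05%). Besides Col10a1 these were Col27a1 at 39.1, 39.8 and 64.6 scaled CPM in vehicle and 12.7, 29.8 and 19.4 after IPI-926, a log2 fold change of -1.21 with SE 0.38, Col13a1 at -1.25 (SE 0.49), Col4a4 at -0.91 (SE 0.54) and Col4a3 at -1.99 (SE 0.56), the last on 135 UMIs. Arterial-like endothelial cells, which had more Col13a1 than venous-like cells in vehicle libraries 1 and 3, numbered 55, 4 and 210 in vehicle libraries. They numbered 2, 7 and 18 in IPI-926 libraries. Their part in the lower Col13a1 was not tested. The 6 type IV chains had a median log2 fold change of -0.83 in the sums over all kept cells, against 0.04 over all genes, and 0 were called.

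The response was also compared between classes, as the difference within each library tested with limma across all genes. Between fibroblasts and perivascular cells 0 of 19 collagens were called (background 0% of 6884 genes, 287 at an unadjusted p under 0.05), against mesothelial cells 0 of 23 (background 0% of 10318, 710 unadjusted), against endothelial cells 0 of 16 (background 0% of 9945, 388 unadjusted) and against ductal cells 0 of 21 (background 0% of 11795, 398 unadjusted). At an unadjusted p under 0.05 stood Col4a1 against perivascular cells, with a difference of log2 fold changes of -1.30 (SE 0.53), Col14a1 against mesothelial cells, with 3.97 (SE 0.88), Col27a1 against ductal cells, with 1.49 (SE 0.63), and Col8a2 and Col6a5 against mesothelial cells. The limma test adjusted over all genes gave p of 0.570 or more for these 5, so a difference of response between classes was not shown.

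Genes that process collagen, among them the prolyl and lysyl hydroxylases, the chaperone Serpinh1 and the lysyl oxidases that crosslink fibrils, were measured beside the chains. In fibroblasts 20 of 28 tested members had positive and 8 negative log2 fold changes, with a median of 0.15 against 0.02 over all genes. None of the 28 was called, at background 0%, and in 0 were the groups apart. P4ha1, the catalytic subunit of prolyl 4-hydroxylase, stood at 143, 229.7 and 93.8 scaled CPM in vehicle and 271, 219 and 215 after IPI-926, a log2 fold change of 0.59 with SE 0.35. Serpinh1, which holds procollagen in the endoplasmic reticulum, had 0.24 (SE 0.24), Lox 0.35 (SE 0.52) and Plod2, a lysyl hydroxylase, -0.11 (SE 0.51). In mesothelial cells 6 of 26 members lay above vehicle in both IPI-926 libraries (background 14.6%) and 2 below (background 15.1%), P3h3 at -1.19 (SE 0.30) and Adamts3, a procollagen peptidase, at -1.94 (SE 0.50) being the lower, and P4ha2 at 1.48 (SE 0.40), P4ha1 at 0.51 (SE 0.22), P3h4 at 0.41 (SE 0.21) and Ppib at 0.30 (SE 0.20) among the higher. In perivascular cells 2 of 25 lay above (background 3.67%) and 1 below (background 3.74%), Loxl1 at 0.51 (SE 0.25), P3h1 at 0.22 (SE 0.25) and P3h4 at -0.63 (SE 0.32), and in endothelial cells 0 of 22. In ductal cells Plod2 was the 1 member lower in each IPI-926 library (background 4.33%), at 6.50, 6.33 and 10.2 scaled CPM in vehicle and 2.26, 3.02 and 5.67 after IPI-926, a log2 fold change of -1.09 with SE 0.45, and Loxl2 the 1 higher (background 3.68%), at 0.56 (SE 0.27).

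Binding partners were likewise without a call. Of the collagen binding and receptor genes in fibroblasts, 4 of 14 were positive and 10 negative, and Lum, a proteoglycan that organises fibrils, was the 1 that lay above vehicle in each IPI-926 library (background 4.86%), with 0 below, at 566, 177 and 525 scaled CPM in vehicle and 629.7, 965 and 656 after IPI-926, a log2 fold change of 0.83 with SE 0.46. Of the laminins and other basement membrane partners, 6 of 12 were positive in fibroblasts, where Agrn at -0.93 (SE 0.41) and Lama1 at -1.21 (SE 1.21) lay below vehicle in each IPI-926 library (background 5.54%). In endothelial cells 1 of 11 was positive, and Nid1, which links laminin to type IV collagen and was the 1 below vehicle in each IPI-926 library (background 5.42%), stood at 356, 459 and 413 scaled CPM in vehicle and 356, 267 and 231 after IPI-926, a log2 fold change of -0.52 with SE 0.21 (adjusted p = 0.98 by edgeR). In mesothelial cells Nid2, its relative, stood at 81.4, 46.5 and 70.9 scaled CPM in vehicle and 14.3 and 3.66 after IPI-926, a log2 fold change of -3.17 with SE 0.57 (adjusted p = 0.116 by edgeR), and Fmod, a proteoglycan of fibrils, at 109, 57.7 and 71.8 scaled CPM in vehicle and 27.8 and 8.62 after IPI-926, a log2 fold change of -2.30 with SE 0.55 (adjusted p = 0.221 by edgeR). The mesothelial libraries did not overlap for either gene, at the background given above for that class.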

How the data were processed

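Per the file headers, the deposited matrices of raw UMI counts were made with Cell Ranger 6.1.2. The submitters' processing notes give version 2.1.1 and the mm10 build, and the annotation is not given in the sources used here. Barcodes were kept from 500 UMIs and 300 genes upward and up to 20% mitochondrial UMIs. Doublets were scored against simulated doublets in each library and the highest scores removed, at 0.8% per 1000 barcodes. Cells were clustered with scanpy 1.11.5 on 2000 variable genes without collagens (30 components, Leiden resolution 1), and a cluster was named from at least 3 detected markers of its class, so names rebuilt here may differ from the submitters'. Counts were summed per library and class with at least 20 cells and tested with edgeR 4.0.16 (TMM scaling, filterByExpr, quasi-likelihood test, Benjamini-Hochberg adjustment over all genes tested, threshold 0.05). DESeq2 1.42.0 and limma 3.58.1 were alternatives, and limma tested differences between classes. The fitting steps were run on simulated counts with large known changes and no library set apart, so this does not show their power in these data.

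Collagens were named in each of the 5 classes if among the 10 highest by mean CPM, if called, if the library groups did not overlap, or if on a list of 16 common chains. Up to 6 processing genes without overlap were named per class, with P4ha1, Plod2, Lox and Serpinh1 in fibroblasts, while binding partners were named after their values were seen. The members and lists were chosen with earlier results of these data known. Nothing in the labels says how many animals gave the samples of a group, so p-values measure the spread between these samples. Limits for a count of 0 (3 counts) cover counting error only. Gene positions are from GENCODE M21 (GRCm38).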

Additional observations from a re-analysis of the deposited data

How the results depend on the processing

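No paired analysis was possible because the labels give no number that ties a treated sample to a vehicle sample. The count of called collagens stayed at 0 in fibroblasts, endothelial and ductal cells and in the 4 comparisons of response between classes under each alternative run. With DESeq2 it was 1 in perivascular cells (Col10a1), 1 in mesothelial cells (Col14a1) and 1 in all kept cells (Col10a1), and without the filter on low counts it was 2 in mesothelial cells. Leaving out 1 library at a time gave 0 to 1 in mesothelial cells, the 1 being without IPI-926 library 2. Over all genes, edgeR and DESeq2 called 0 and 34 in fibroblasts, 1 and 5 in perivascular, 4 and 175 in mesothelial, 0 and 3 in endothelial and 0 and 87 in ductal cells, and 0 and 123 in all kept cells. Without the filter on low counts edgeR called 35, 280 and 2 in perivascular, mesothelial and endothelial cells, limma-voom called 0 and 29 in perivascular and mesothelial cells, and leaving out 1 library gave 0 to 6, 0 to 100 and 0 to 2 in these 3 classes. The number of chains above 10 CPM was 30 to 31, and the highest class of 30 chains was the same for all 30 under the stricter cell filter and without clusters of 1 library, and for 29 with scored doublets kept. With scored doublets kept, collagens made up a mean of 1.71% of mesothelial UMIs (0.942% without them) and 0.0912% of ductal UMIs (0.0571% without). Directions that turned when 1 library was left out had log2 fold changes of -0.21 to 0.56 for Col1a1, -0.10 to 0.49 for Col1a2, -0.25 to 0.65 for Col5a1 and -0.53 to 0.82 for Col14a1 in fibroblasts, -0.18 to 0.22 for Col4a1 in perivascular cells and -0.61 to 0.25 for Col18a1 in ductal cells. With the unnamed Wt1 cluster added, chosen after seeing the data as was the removal of the Col10a1 sub-cluster, Col1a1 was at -0.030 and Col14a1 at -0.24 in fibroblasts and Col3a1 at 0.31 in mesothelial cells. Col3a1 in mesothelial cells was at 0.28 with scored doublets kept and at 0.28 with collagens in the clustering, and Col18a1 in ductal cells was at 0.025 without clusters of 1 library. The cause of these changes was not tested. Of 699 values recomputed, 668 were classed as the same. For a fold change this meant the same direction and side of the threshold. For a count of calls it meant an equal count, for the number of chains a close one, and for a mean collagen share a change within 1 SD. Of the rest, 19 fold changes reversed, 5 passed the threshold only in the alternative, and 7 counts or shares moved. Depth limits chains on few UMIs, such as Col8a2 in mesothelial cells.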
